A study of Mus musculus with 32 samples.

Results

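Bone marrow-derived macrophages (BMDMs) of the genotype *Trex1* WT/FL that had been exposed to 4-hydroxytamoxifen (4-OHT) were compared with untreated cells of the same genotype on days 2, 3 and 4 after the exposure. The libraries were chosen by their labels for genotype, treatment and day, which gave 12 of the 32 libraries of the series, 6 from 4-OHT-treated and 6 from untreated cells, with 2 per treatment and day. All cells carried one wild type and one loxP-flanked (FL) *Trex1* allele and, by the methods of the study, *R26 CreERT2*. They were grown from mouse bone marrow for 6 days in medium with 30% L929 supernatant, and the treated cells then received 2 µg/ml 4-OHT for 22 h. The labels name no vehicle for the untreated cells and no animal, age, batch or replicate number, and no library here came from 4-OHT-treated cells without *CreERT2* or without a floxed allele. The effects of 4-OHT itself, of active Cre and of the loss of one *Trex1* allele therefore cannot be told apart in this comparison.

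*TREX1* encodes the main cytosolic DNA 3′ exonuclease of mammalian cells. Loss of both alleles lets DNA accumulate that the sensor cGAS detects, and cGAS activates STING, type I interferon (IFN) and the IFN-stimulated genes. *CreERT2* is a Cre recombinase fused to a mutated estrogen receptor domain that keeps it inactive until 4-OHT binds, and *R26* (*Rosa26*) is a locus active in most cell types. 4-OHT is also a ligand of estrogen receptors, so WT/FL cells are the usual control for effects of the drug and of Cre that do not depend on complete loss of *Trex1*.

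The values are estimated counts per gene. Totals ranged from 35120505 to 54491377 in untreated and from 45077879 to 61462516 in 4-OHT libraries, and 14437 genes passed the filter on low counts. Levels are given as CPM, that is counts scaled to library size, which is not a level per transcript length, so they are compared between libraries and not between genes. The 2 libraries within each group differed beyond counting error (chi-square over degrees of freedom, 13.7 to 20.5), and p-values measure the spread between libraries, which may be technical. The labels do not say whether libraries of different days came from the same animals or cultures. The fit treats all 12 as independent, so n = 6 per treatment counts libraries and not animals. Macrophage markers summed to 35300 to 54300 CPM in untreated and 35900 to 55800 CPM in 4-OHT libraries, against at most 194 CPM for neutrophil and at most 6.14 CPM for B or plasma cell markers, and the 12 T or NK cell markers summed to 30.1 to 88.2 CPM in untreated and 34.5 to 107 CPM in 4-OHT libraries. Of these 12, *Cd3e*, *Cd3g*, *Cd8a*, *Ncr1* and *Gzma* were at 0 in all 12 libraries, and *Cd4* and *Il7r*, with means of 23.5 and 38.5 CPM in untreated and 27.9 and 44.8 CPM in treated cells, gave most of the sum. In bulk RNA, fewer cells of a type and less RNA per cell cannot be told apart.

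*Trex1* itself (ENSMUSG00000049734, chr9:108887001-108888802 on the minus strand, GRCm39) was lower in 4-OHT-treated cells. Untreated libraries held 122 and 113 CPM on day 2, 126 and 138 on day 3, and 76.7 and 88.2 on day 4. After 4-OHT they were at 56.6 and 56 CPM on day 2, 67.4 and 77.9 on day 3, and 46.6 and 47.4 on day 4. Both 4-OHT libraries lay below both untreated libraries on every day. Averaged over the days, the *Trex1* level in 4-OHT-treated cells was 53.2% of that in untreated cells, a log2 fold change of -0.91 (SE 0.053, n = 6 per treatment; edgeR quasi-likelihood test, Benjamini-Hochberg adjusted p = 5.48e-07). Its log2 difference was largest on day 2 (-1.06), with -0.86 and -0.81 on days 3 and 4. In *Trex1* FL/FL cells of the same series, where both alleles can be deleted, untreated libraries of days 2 to 4 held 3109 to 5746 *Trex1* counts. Their 4-OHT libraries held 14 and 9 counts on day 2 and 0 in all 4 libraries of days 3 and 4, and a count of 0 allows up to 3 counts per library.

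All 1116 of the 31-base words of annotated *Trex1* transcripts are shared with *Atrip*, the partner protein gene of the checkpoint kinase ATR, whose annotated span covers *Trex1* on the same strand. Counts of the pair may therefore be split between them by the quantification. *Atrip* itself had a mean of 15.3 CPM in untreated and 13.2 CPM in 4-OHT-treated cells (log2 fold change -0.22, SE 0.058, adjusted p = 0.076), which did not pass the threshold.

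*Shisa5* (ENSMUSG00000025647), which encodes an endoplasmic reticulum membrane protein known as a p53-inducible factor, lies next to *Trex1* on the opposite strand (chr9:108867633-108887029). It fell with *Trex1*. Untreated libraries held 400 and 369 CPM on day 2, 509 and 494 on day 3, and 466 and 431 on day 4. Treated libraries held 222 and 205 CPM on day 2, 290 and 284 on day 3, and 313 and 291 on day 4. The 6 treated libraries all lay below the 6 untreated ones, and the log2 fold change was -0.74 (SE 0.046, adjusted p = 2.71e-07). In FL/FL cells *Shisa5* fell by 4.48 on the log2 scale, and the difference between the genotypes was -3.73 (adjusted p = 7.58e-20). The 4-OHT libraries of FL/FL cells held 429 to 1111 *Shisa5* counts against 16926 to 27369 in untreated ones. None of the 3921 words of *Shisa5* (0%) occurs in annotated transcripts of other genes. The annotated 3′ ends of both genes overlap by 29 bases. This stretch is shown because it is where the only 2 genes that were called lower in WT/FL cells on day 1 meet. It spans chr9:108887001-108887029 (GRCm39, plus strand), and the capitals mark the complement of the letters AATAAA, the poly(A) signal hexamer, on the *Trex1* strand:
Trex1-Shisa5 overlap: tcagtgctatggaagtcTTTATTcatcat

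Of 15 annotated genes within 100 kb of *Trex1*, 7 were tested and 3 were called in WT/FL cells. The third was *Pfkfb4*, which encodes an enzyme that sets fructose-2,6-bisphosphate and thereby glycolysis. It lies 24153 bases from *Trex1* and fell from a mean of 56.7 to 49.6 CPM (log2 fold change -0.19, SE 0.034, adjusted p = 0.006). In FL/FL cells the log2 fold change of *Pfkfb4* was -0.69, and the difference between the genotypes passed the test (-0.50, adjusted p = 7.04e-08). *Ccdc51* (0.01) and *Tma7* (-0.06), on the other side of *Trex1*, did not pass the test in WT/FL cells. Neither did *Col7a1* (0.20, adjusted p = 0.85), which lies on the side of *Shisa5* and *Pfkfb4* and was rare (0.674 CPM in untreated cells). In FL/FL cells 4 of the 7 genes were called, *Atrip* (-0.38, adjusted p = 8.19e-06) among them. The difference between the genotypes did not pass the test for *Atrip* (-0.16, adjusted p = 0.17).

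**Figure D1:**
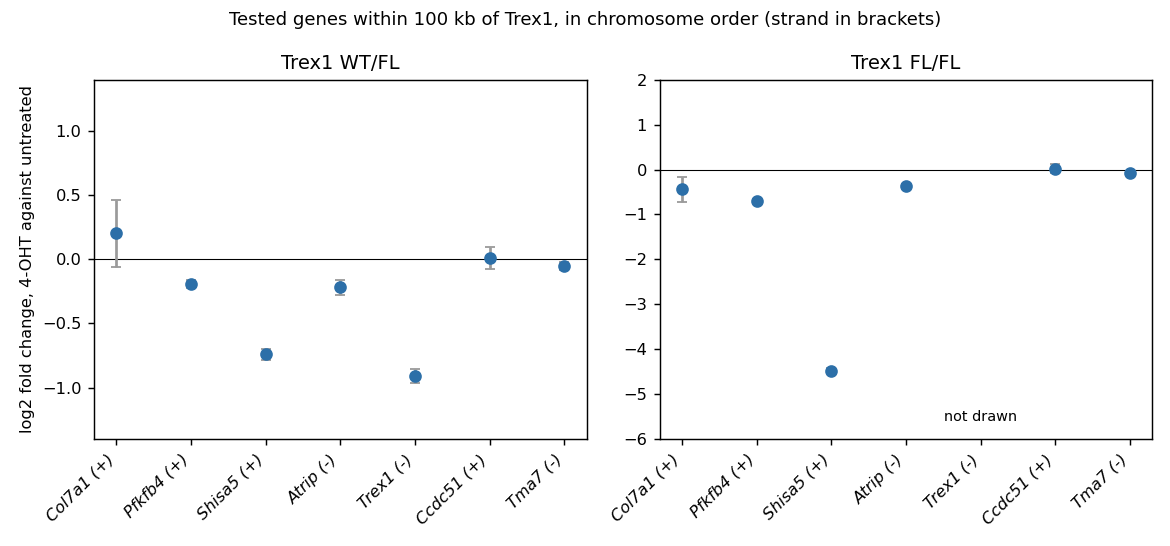
Log2 fold changes, 4-OHT against untreated over days 2 to 4, of the 7 tested genes within 100 kb of *Trex1* in chromosome order, with SE as error bars, in WT/FL cells (left) and FL/FL cells (right; the scales differ). In WT/FL cells *Trex1* (-0.91) and *Shisa5* (-0.74) lie far below the others, and in FL/FL cells, where *Trex1* is not drawn because 4 of its 4-OHT libraries hold 0 counts, *Shisa5* lies at -4.48.

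Across all genes, 88 of 14437 (0.61%) were called at an adjusted p below 0.01, of which 27 (0.187%) were higher and 61 (0.423%) lower after 4-OHT, and 1721 (11.9%) had an unadjusted p below 0.05. DESeq2 called 103 higher and 121 lower. Most changes were small. The log2 fold change of the higher genes ran from 0.14 to 1.37 with a median of 0.25, and that of the lower genes from -0.15 to -2.94 with a median of -0.35. Only 30 called genes exceeded 0.5 and 9 exceeded 1 in absolute log2 fold change. At the thresholds of the study (adjusted p below 0.01 and absolute log2 fold change above 1.5), 4 genes (0.0277%) were called, all lower, namely *Mex3b*, *Mgl2*, *Samd5* and *Vegfa*. All 88 genes had the same sign on each of the 3 days. For 86 of them the 2 treated and 2 untreated libraries did not overlap on any day, against 1.7% of all tested genes that were higher in this way and 1.72% that were lower. The 88 were called on these same libraries, so both counts describe the calls and are no separate support for them. Over all tested genes the median log2 fold change was close to 0 (-0.0011), and 49.4% of them were above 0.

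**Figure D2:**
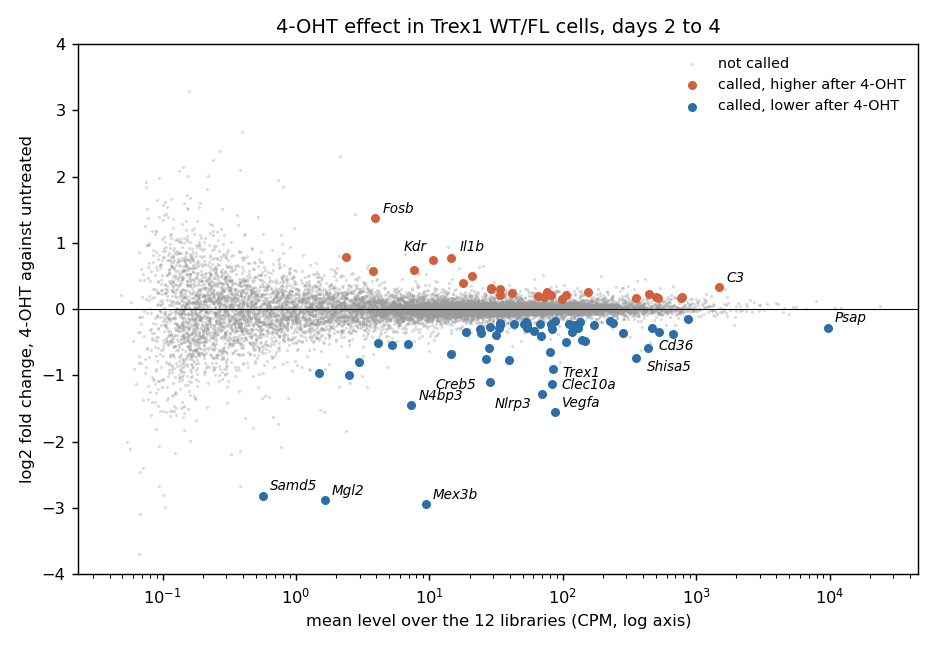
Log2 fold change of each of 14437 genes, 4-OHT against untreated in WT/FL cells over days 2 to 4, against the mean level over the 12 libraries in CPM (log axis); 9 genes lie outside the axis and are not called. The 27 called higher genes (orange) lie at 0.14 to 1.37 and the 61 called lower genes (blue) at -0.15 to -2.94, with *Mex3b*, *Mgl2*, *Samd5* and *Vegfa* at the bottom.

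The lower genes with the largest changes include an RNA-binding protein, lectins of alternatively activated macrophages, an angiogenic growth factor and an inflammasome sensor. *Mex3b* (ENSMUSG00000057706), which encodes an RNA-binding protein with a ubiquitin ligase domain, held 11.7 and 9.8 CPM in untreated cells on day 2, 22.7 and 25.9 on day 3, and 12.3 and 17.6 on day 4. The 4-OHT libraries held 1.55 to 2.44 CPM over the 3 days. No treated library came near the lowest untreated one, and the log2 fold change was -2.94 (SE 0.26, adjusted p = 0.000876). Untreated *Mex3b* was higher on day 3 than on day 2 while no treated library exceeded 2.44 CPM, and the log2 fold changes were -2.15, -3.77 and -2.92 on days 2, 3 and 4. The difference of the *Mex3b* effect between days did not pass the test.

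*Vegfa*, which encodes vascular endothelial growth factor A, held 29.1 and 26 CPM in untreated cells on day 2, 187 and 138 on day 3, and 201 and 182 on day 4. In treated cells these were 6.89 and 6.88 CPM on day 2, 61.8 and 42.6 on day 3, and 91.5 and 76.6 on day 4. Levels were higher on days 3 and 4 than on day 2 in both groups, and the treated libraries lay below the untreated ones of the same day (log2 fold change -1.56, SE 0.16, adjusted p = 0.00289). *Nlrp3*, the sensor protein of the NLRP3 inflammasome, held 78.4 to 127 CPM in untreated and 33.9 to 48.4 CPM in 4-OHT libraries, which did not overlap. Its log2 fold change was -1.28 (SE 0.062, adjusted p = 4.39e-07), with -1.18, -1.43 and -1.22 on days 2, 3 and 4.

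A pair of C-type lectin genes that are used as markers of alternatively activated macrophages fell. *Mgl2* was rare, with 0.539 and 0.49 CPM on day 2, 4.3 and 8.72 on day 3, and 1.3 and 2.28 on day 4 in untreated cells. Treated cells held 0.15 and 0.162, then 0.558 and 0.854, then 0.115 and 0.251 CPM on these days. On each day the treated libraries lay below the untreated ones, with a log2 fold change of -2.89 (SE 0.31, adjusted p = 8.26e-05). Of the 31-base words of *Mgl2*, 17.1% are shared with its neighbour *Clec10a*, so some counts could have been assigned to either gene. *Clec10a* held 25.8 and 25.3 CPM on day 2, 208 and 249 on day 3, and 88.8 and 114 on day 4 in untreated cells. Its 4-OHT libraries held 16.4 and 17.1, 91.8 and 80.2, and 39.8 and 44.2 CPM (log2 fold change -1.13, SE 0.14, adjusted p = 0.00702). The call of *Clec10a* was lost when any of 11 of the 12 libraries was left out, while the log2 fold change stayed between -1.20 and -1.05. Dendritic cell markers, which can accompany these lectins, summed to 4.84 to 7.78 CPM in untreated and 4.11 to 6.46 CPM in treated libraries, and their part in the result was not tested.

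*N4bp3*, which encodes a binding protein of the ubiquitin ligase NEDD4, fell from 7.8 to 16.2 CPM in untreated libraries to 2.52 to 4.5 CPM in treated ones (log2 fold change -1.45, SE 0.14, adjusted p = 7.32e-05). *Samd5* was at the lower end of what could be measured, with 0.557 to 1.33 CPM in untreated and 0 to 0.321 CPM in 4-OHT libraries (log2 fold change -2.81, SE 0.43, adjusted p = 0.00163). The groups did not overlap for either gene. Smaller decreases were those of *Enc1* (-0.77), which encodes an actin-binding kelch protein, *Ankrd33b* (-0.75), *Uprt* (-0.68), *Arl5c* (-0.65), a small GTPase of the ARF-like family, and the scavenger receptor *Cd36* (-0.59). *Bin1*, which encodes a membrane-bending BAR domain protein, changed by -0.47, the integrin alpha L gene *Itgal* by -0.48, and the interleukin-17 receptor *Il17ra* by -0.28. *Psap*, the precursor of the saposins that activate lysosomal sphingolipid hydrolases, also fell. It held 5820 to 14000 CPM in untreated and 4980 to 11300 CPM in treated libraries, and fell by 0.28 on the log2 scale (SE 0.032, adjusted p = 7.32e-05) without overlap on any day.

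**Figure D3:**
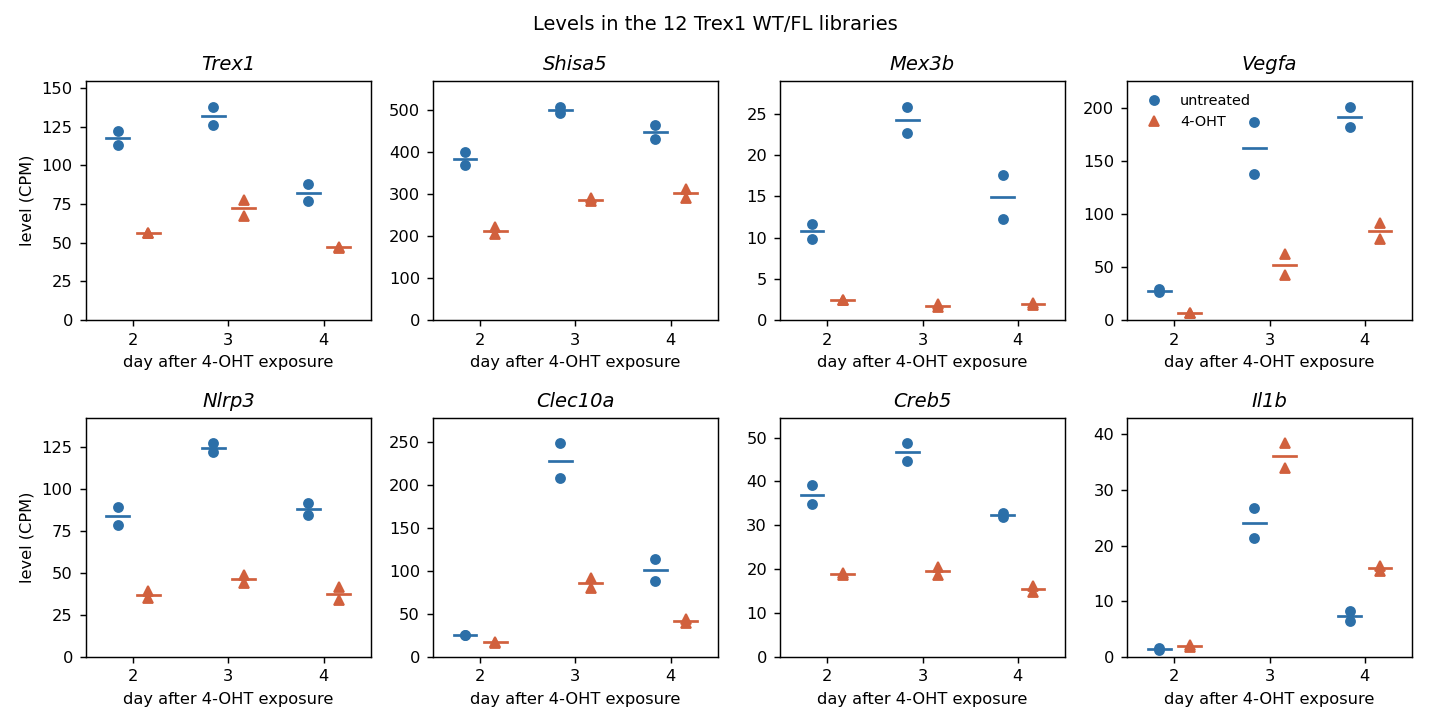
Level in CPM of 8 genes in each of the 12 WT/FL libraries by day after the exposure (circles, untreated; triangles, 4-OHT; lines, means of the 2 libraries; each axis starts at 0). On each day the treated libraries lie below the untreated ones for *Trex1*, *Shisa5*, *Mex3b*, *Vegfa*, *Nlrp3*, *Clec10a* and *Creb5* and above them for *Il1b*.

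The 27 genes called higher were fewer than the 61 called lower, which turned to 356 higher and 224 lower with no filter on low counts. In that edgeR fit the adjusted p of *Trex1* was 1.99e-123, against 5.48e-07 with the filter. Its log2 fold change was -0.91 in both, so the numbers of calls with and without the filter cannot be compared directly. *Fosb*, which encodes a subunit of the transcription factor AP-1, had the largest increase of the called genes. It held 0.0372 and 0.0233 CPM in untreated cells on day 2, 0.564 and 0.473 on day 3, and 5.85 and 5.57 on day 4. The 4-OHT libraries held 0.128 and 0.27, 1.02 and 0.854, and 18.9 and 13.3 CPM on these days. *Fosb* was thus highest on day 4 in both groups and was above the untreated level on each day (log2 fold change 1.37, SE 0.18, adjusted p = 0.000467). Its day 2 values rest on few counts, and in the alternative fits of all 3 days its log2 fold change ran from 1.37 to 1.66. *Jun*, another AP-1 subunit, held 96.5 to 186 CPM in untreated and 127 to 230 CPM in treated libraries and rose by 0.25 on the log2 scale (SE 0.041, adjusted p = 0.00315).

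The interleukin-1 genes *Il1b* and *Il1rn*, which encode the cytokine IL-1β and its receptor antagonist, both rose. *Il1b* held 1.52 and 1.19 CPM on day 2, 26.7 and 21.3 on day 3, and 8.26 and 6.45 on day 4 in untreated cells. In 4-OHT libraries these were 2.16 and 1.69, 38.4 and 33.9, and 16.4 and 15.4 CPM (log2 fold change 0.77, SE 0.12, adjusted p = 0.0061). *Il1rn* held 14.4 to 24.3 CPM in untreated and 16.9 to 32.3 CPM in treated libraries (log2 fold change 0.50, SE 0.072, adjusted p = 0.00155). On each day both genes were higher in both treated libraries than in either untreated one.

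*Kdr*, which encodes the VEGF receptor 2, was higher after 4-OHT while its ligand gene *Vegfa* was lower. It held 10.7 and 9.17 CPM on day 2, 10.4 and 10.9 on day 3, and 3.14 and 2.71 on day 4 in untreated cells. The treated libraries held 17.2 and 13.4, 17.7 and 22.9, and 4.02 and 5.06 CPM (log2 fold change 0.73, SE 0.095, adjusted p = 0.000467). *Kdr* is also an endothelial marker. The 6 endothelial markers listed here summed to 25 to 79.4 CPM in untreated and 27.7 to 85.1 CPM in treated libraries, and their part in this result was not tested.

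Other genes that rose were *Slco4a1* (0.59), an organic anion transporter, and the stress-induced regulators *Ddit3* (0.40), which encodes CHOP, and *Nupr1* (0.32). Of the 31-base words of *Ddit3*, 59.1% are shared with *Mars1*. Complement component *C3* held 424 to 1930 CPM in untreated and 489 to 2550 CPM in treated libraries, with no overlap on any day (log2 fold change 0.33, SE 0.041, adjusted p = 0.000265). *Nr1h3*, which encodes the oxysterol receptor LXRα, rose by 0.30 (adjusted p = 0.00108). *Acp5*, which encodes tartrate-resistant acid phosphatase, rose by 0.30 (adjusted p = 0.00695), although a treated library of day 4 held 5.39 CPM against 5.48 and 5.19 in the untreated ones. *Acp5* is an osteoclast marker, and the 8 osteoclast markers summed to 110 to 241 CPM in untreated and 118 to 292 CPM in treated libraries, whose part in the result was not tested. *Slamf7*, a receptor of the SLAM family, rose by 0.25 (adjusted p = 0.0095), *Casp4*, an inflammatory caspase, by 0.25 (adjusted p = 0.00964) and *Prdm1*, which encodes the repressor BLIMP-1, by 0.21 (adjusted p = 0.00809). These 3 calls were lost in 9, 8 and 10 of the 12 fits that left out 1 library. The same held for *Acp5* in 9 and *Il1b* in 7 of these fits. The IFN-inducible GTPase gene *Tgtp1* was higher by 0.79 (adjusted p = 0.00735), but 81.6% of its words are shared with *Tgtp2* and the call was lost without any of 11 of the 12 libraries.

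The 4-OHT effect in WT/FL cells was then set beside that in FL/FL cells on the same days, which have their own untreated controls. The log2 fold changes of both genotypes and their differences in this comparison come from 1 fit of 24 libraries, so that WT/FL values can differ slightly from those of the 12 libraries above. In FL/FL cells 17% of 14760 tested genes were called higher and 15.4% lower. Of the 88 genes called in WT/FL cells, 79 had the same sign in FL/FL cells and 75 were also called there in the same direction. For 53 of the 88 the effect differed between the genotypes at an adjusted p below 0.01, against 9.89% of all tested genes with a higher and 7.15% with a lower effect in FL/FL cells. Several of the strongest decreases did not differ past the threshold between the genotypes. *Mex3b* changed by -2.95 in WT/FL and by -3.43 in FL/FL cells (difference -0.48, adjusted p = 0.018), *Vegfa* by -1.61 in both (adjusted p = 1), and *N4bp3* by -1.44 and -1.89 (adjusted p = 0.0137). A p that misses the threshold does not show that the effects were equal. *Nlrp3* and *Clec10a* fell more in FL/FL cells, by 1.55 and 1.91, with differences of -0.28 (adjusted p = 0.00362) and -0.81 (adjusted p = 8e-07).

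*Creb5*, which encodes a leucine zipper transcription factor of the CREB/ATF family, fell in WT/FL cells and did not pass the test in FL/FL cells. Untreated WT/FL libraries held 34.8 and 39.2 CPM on day 2, 44.7 and 48.7 on day 3, and 32.8 and 31.8 on day 4. The 4-OHT libraries held 18.6 and 19.1, 18.7 and 20.4, and 16.1 and 14.8 CPM. The groups did not overlap (log2 fold change -1.10, SE 0.052, adjusted p = 9e-10), which was the smallest adjusted p of all genes tested. In FL/FL cells the log2 fold change of *Creb5* was -0.04 (adjusted p = 0.52), and the genotypes differed by 1.05 (SE 0.069, adjusted p = 2.01e-11). This FL/FL average joins days of opposite direction. Scaled over all 32 libraries, untreated FL/FL libraries held 48.5 and 49.9 CPM on day 3 and treated ones 34.2 and 35.8. On day 4 these were 27.7 and 29 against 32.7 and 39.8, and on day 2 33.9 and 37.1 against 34.9 and 34. A difference between days in FL/FL cells was not tested.

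The 9 called genes with the opposite sign in FL/FL cells were *Phactr1*, *Fgd4*, *Stambpl1*, *Lrp12*, *Ern1*, *Plod1* and *Spn*, lower in WT/FL cells, and *Fosb* and *Htra1*, higher there. *Phactr1*, a regulator of actin and protein phosphatase 1, changed by -0.96 in WT/FL (0.24 in FL/FL), *Fgd4*, an exchange factor for CDC42, by -0.50 (0.10), and the deubiquitinase gene *Stambpl1* by -0.35 (0.18). *Lrp12*, a receptor of the LDL receptor-related family, changed by -0.23 (0.37), *Ern1*, which encodes the unfolded protein sensor IRE1α, by -0.22 (0.11), *Plod1*, a collagen lysyl hydroxylase, by -0.22 (0.02), and the sialoglycoprotein gene *Spn* (CD43) by -0.22 (0.55). Of these 7, *Lrp12* and *Spn* were called higher in FL/FL cells (adjusted p = 7.11e-10 and 2.14e-06). In the fit of 24 libraries *Fosb* changed by 1.65 in WT/FL and -0.24 in FL/FL cells, and *Htra1*, a secreted serine protease gene, by 0.58 and -0.35. For *Fosb* the untreated libraries of day 4 were higher in FL/FL than in WT/FL cells, which enters this difference. The difference between the genotypes passed the test for all 9, with absolute values from 0.23 for *Plod1* to 1.89 for *Fosb*. All 9 were chosen for this pattern after their values were seen.

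Several of the higher genes had larger effects in FL/FL cells. *Kdr* changed by 2.64 there against 0.72 in WT/FL, *Ddit3* by 1.90 against 0.40, *Slamf7* by 1.51 against 0.25, and *Casp4* by 1.04 against 0.25, with differences between the genotypes of 1.91, 1.5, 1.26 and 0.79 that passed the test. *Il1b* changed by 0.98 against 0.73, and this difference did not pass (0.25, adjusted p = 0.51). Among the lower genes, the lysosomal sorting receptor *Sort1* changed by -1.53 in FL/FL against -0.22 in WT/FL cells and *Igfbp4*, an insulin-like growth factor binding protein, by -0.95 against -0.29. Both differences passed the test (-1.30 and -0.67).

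**Figure D4:**
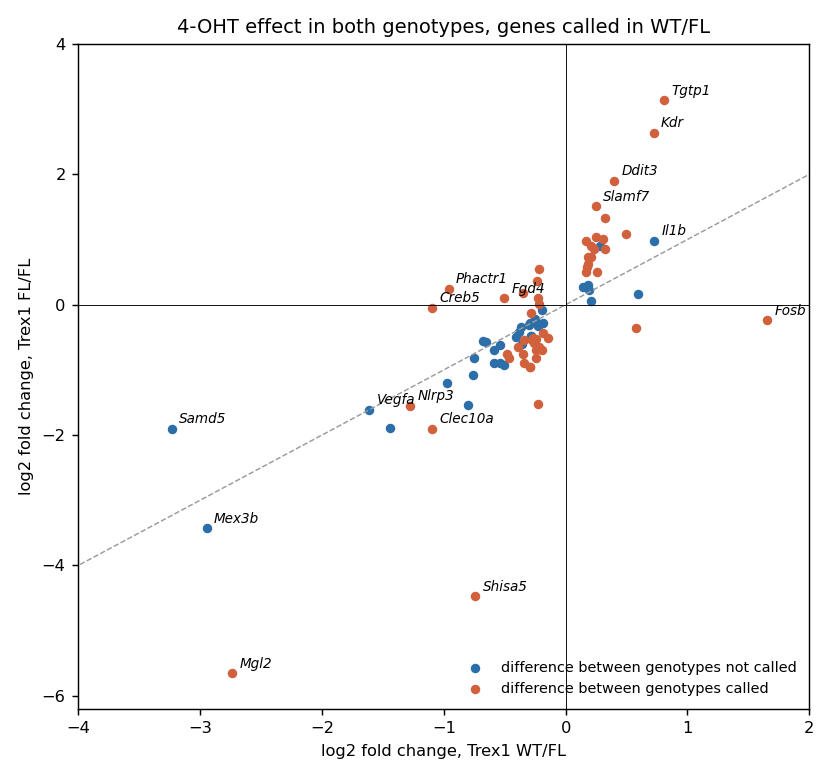
Log2 fold changes, 4-OHT against untreated over days 2 to 4, in WT/FL (horizontal) and FL/FL cells (vertical) of the genes called in WT/FL cells except *Trex1*, both from the fit of 24 libraries; the dashed line marks equal effects. *Mex3b* and *Vegfa* lie near the line, *Creb5* and *Phactr1* lie near 0 on the vertical axis, and *Shisa5* lies far below the line.

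The type I IFN-inducible genes were a list of 94, compiled by hand, of which 89 were tested. This list is not complete. The IFN-inducible *Tgtp1*, called higher as given above, is not on it, and neither are *Casp4* (0.25) and *Slfn2* (0.17), which were also called higher. The counts that follow leave these genes out. None of the 89 was called by edgeR in the fit of the 12 libraries, against 0.187% of all genes called higher, and 68 of the 89 had an unadjusted p below 0.05. All 89 had a log2 fold change above 0, against 49.4% of all tested genes, with values from 0.04 to 0.63 and a median of 0.22. DESeq2 called 12 of them higher and limma-voom 0, and edgeR called 4 in the fit of all 32 libraries and 1 with the series of library numbers as a block. Without the second 4-OHT library of day 2 edgeR called 10 of them, and without the first untreated library of day 2 it called 3. Day by day, 84 of the 89 were above 0 on day 2, 88 on day 3 and 88 on day 4, against 50%, 51% and 49.6% of all tested genes, and 82 were above 0 on all 3 days. The medians on these days were 0.14, 0.30 and 0.22. Of the list, 5 members had treated libraries above the untreated ones on each day, against 1.7% of all tested genes.

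The mean log2 CPM of the 89 genes was 6.71 and 6.55 in untreated libraries of day 2 and 6.90 and 6.65 in treated ones. On day 3 it was 6.71 and 6.91 against 7.00 and 7.25, and on day 4 it was 5.72 and 5.93 against 5.92 and 6.19. The treated libraries lay above the untreated ones on day 3 and overlapped with them on days 2 and 4. Within each of the 2 series of library numbers in the titles, whose meaning the labels do not give, the treated library was above the untreated one on each day (6 of 6 differences). The members with the smallest p were the RNA sensor genes *Ifih1* (MDA5; 0.21, adjusted p = 0.0139) and *Dhx58* (LGP2; 0.21, adjusted p = 0.0161). *Ifih1* held 142 and 136 CPM on day 2, 141 and 151 on day 3, and 92.1 and 90.4 on day 4 in untreated cells. The treated libraries held 154 and 141, 173 and 188, and 102 and 112 CPM, which overlapped with the untreated ones on day 2 alone.

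IFN-stimulated genes that were measured by PCR in the study are *Ifi44*, *Oasl1*, *Usp18*, *Isg15*, *Oas1a*, *Ifit3*, *Irf7* and *Cxcl10*. All 8 of these genes had values above 0 on each day, from 0.15 for *Oas1a* to 0.46 for *Ifi44* over the days, and 0 passed the test, with adjusted p from 0.103 to 0.654. The untreated libraries of *Ifi44* held 47.8 and 34.8 CPM on day 2, 74.6 and 83.6 on day 3, and 24.5 and 34.8 on day 4. The treated libraries held 59.9 and 39, 103 and 152, and 31.2 and 47.3 CPM. For *Ifi44* the groups overlapped on days 2 and 4, and DESeq2 and limma-voom also called 0 of the 8 genes. With no filter on low counts, where the adjusted p of *Trex1* was also far smaller as given above, edgeR called all 8 higher. *Oasl1* was called in 1 of the fits that left out 1 library. On day 1 these genes had the opposite sign, with 0 of 8 above 0 and a median of -0.56, and 8 of the 89 listed genes were above 0 then, with a median of -0.19. In FL/FL cells over days 2 to 4 the median of the 89 genes was 1.41, and for 88 of them the effect was higher than in WT/FL cells at an adjusted p below 0.01.

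Among genes of DNA sensing and of the Aicardi-Goutières syndrome, the inherited interferonopathy that loss of *TREX1* can cause, 1 of 24 tested was called lower, *Trex1* itself. *Cgas* changed by 0.06 and *Sting1* by 0.00, neither of which passed the test.

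For the lists from here on, the shares of all tested genes were 0.187% called higher, 0.423% called lower and 49.4% above 0. Of the immediate early genes, which encode rapidly induced transcription factors and their regulators, 2 of 28 were called higher (*Fosb* and *Jun*). Of these 28 genes, 22 were above 0, with a median of 0.17. With the series of library numbers as a block 5 of them were called higher. *Nr4a1*, an orphan nuclear receptor of this list, was the lowest at -0.47 (adjusted p = 0.076). DESeq2 and the fit of all 32 libraries called *Nr4a1* lower. Of 52 NF-κB and TNF-inducible genes, *Il1b* was called higher, and 47 were above 0 with a median of 0.09. DESeq2 called 4 of these higher and the fit with the block called 5. Among 23 genes of the ATF4 response to amino acid shortage, *Ddit3* and *Nupr1* were called higher and 19 were above 0. The list of the unfolded protein response of the endoplasmic reticulum had 1 of 23 called higher (*Ddit3*) and 1 called lower (*Ern1*), with 18 above 0. *Nr1h3* was the only one of 15 LXR targets that was called, and 3 of the 15 were above 0.

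Several lists lay below 0. For comparison, 11.9% of all tested genes had an unadjusted p below 0.05. In the G2/M phase list 0 of 54 genes were called by edgeR, 24 had an unadjusted p below 0.05 and 3 were above 0, with a median of -0.14. Its members with the smallest p were *Cks1b* (-0.31, adjusted p = 0.0356) and *Hmgb2* (-0.19, adjusted p = 0.0474). DESeq2 called 1 member lower and limma-voom 0. Of 43 S phase genes 0 were called by edgeR, DESeq2 or limma-voom, 4 had an unadjusted p below 0.05 and 14 were above 0, with a median of -0.02. The proliferation marker *Mki67* changed by -0.16 (adjusted p = 0.45) and the cell cycle inhibitor gene *Cdkn1a* by 0.03 (adjusted p = 0.77).

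In the list of NRF2 targets, which serve antioxidant defence, 1 of 23 was called, *Osgin1* (-0.27, adjusted p = 0.00422), and 2 were above 0, with a median of -0.16. DESeq2 called 6 of them lower. Of 37 hypoxia and glycolysis genes *Vegfa* and *Pfkfb4* were called lower and 9 were above 0, but the median was -0.04. Of 22 alternative activation genes *Mgl2* and *Clec10a* were called lower and 7 were above 0, with a median of -0.09. Transglutaminase *Tgm2* of the same list had a mean of 120.5 CPM in untreated and 68.7 CPM in treated cells (-0.80, adjusted p = 0.0258). DESeq2, the fit of all 32 libraries and the fit with the block called *Tgm2* lower. Of 45 lysosome and V-ATPase genes 32 were above 0 and the only called member was *Psap*, which was lower. In 18 cytosolic heat shock chaperones 1 was called lower, *Dnajb4* (-0.36).

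Estrogen receptors and their classical targets were listed because 4-OHT binds these receptors. Of 14 tested 0 were called by edgeR, DESeq2 or limma-voom, 3 had an unadjusted p below 0.05 and 5 were above 0, with a median of -0.02. Of all tested genes edgeR called 0.61%, 11.9% had an unadjusted p below 0.05 and 49.4% were above 0. At a share of 0.61%, 0 calls in this short list or in those that follow do not show that a response was absent. *Esr1*, which encodes estrogen receptor α, held a mean of 13.2 CPM in untreated and 13 CPM in treated cells. By edgeR 0 of 38 p53 targets (6 with an unadjusted p below 0.05, 12 above 0), 0 of 25 cholesterol synthesis genes (2 and 10), 0 of 14 fatty acid synthesis genes (5 and 4), 0 of 14 replication-dependent histone genes (4 and 5) and 0 of 13 respiratory chain genes of the mitochondrial genome (1 and 1) were called. DESeq2 called 1 fatty acid synthesis gene and 1 mitochondrial gene lower and 0 of the other three lists, and limma-voom called 0 of these genes.

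**Figure D5:**
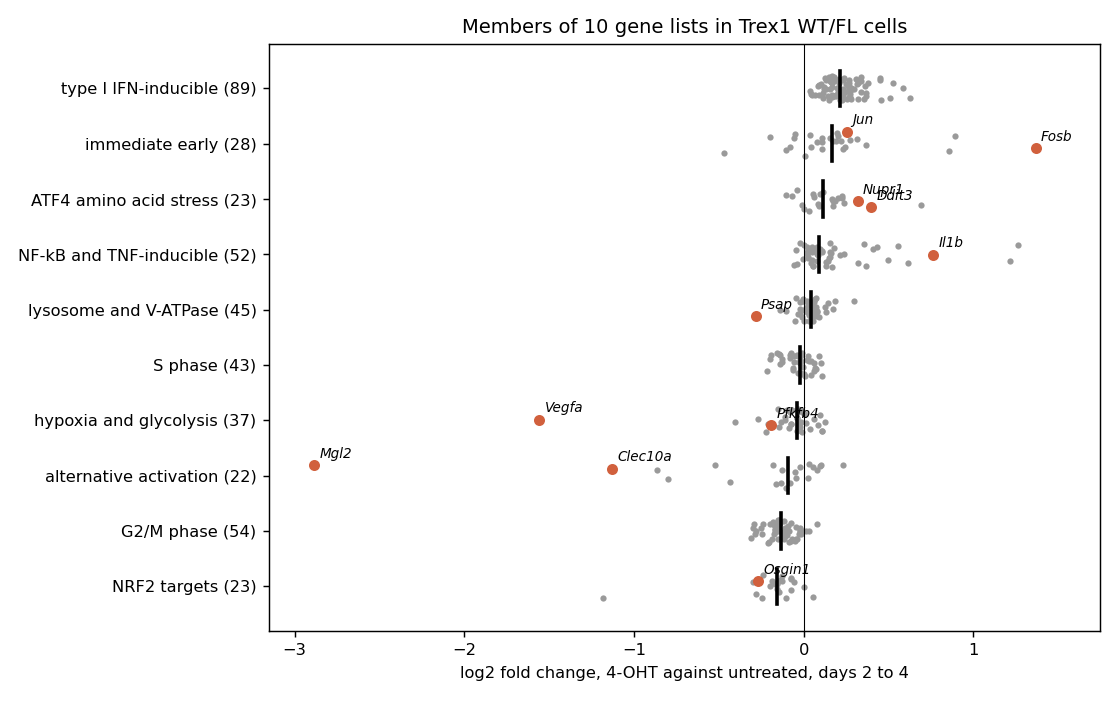
Log2 fold change, 4-OHT against untreated in WT/FL cells over days 2 to 4, of each tested member of 10 gene lists (points; number tested in brackets; black bars, list medians; orange, called genes with their names). All 89 genes of the type I IFN-inducible list, which does not hold *Tgtp1*, *Casp4* or *Slfn2*, lie above 0 with a median of 0.22. None of these 89 is called, while the G2/M phase and NRF2 lists have medians of -0.14 and -0.16.

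In the fit of 6 group means, which compares 2 libraries with 2 for each day, day 2 gave 10 lower genes (0.0693%), day 3 gave 28 lower genes (0.194%), and neither gave a higher one (0%). Day 4 gave 19 lower genes (0.132%) and 5 higher ones (0.0346%). The effect differed between the 3 days for 1 gene (0.00693%), *Gm47924* (13 genes by DESeq2, and 1 other gene but not *Gm47924* in the fit of all 32 libraries), and 519 genes (3.59%) had an unadjusted p below 0.05 for such a difference. *Gm47924* held 0 CPM in both treated libraries of day 2 and 1.82 to 2.92 CPM in those of days 3 and 4. All of its 31-base words are shared with *Csnk2a1*, so its own counts are uncertain. None of the 88 called genes was called for a difference between days.

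On day 1 after the exposure, 3 genes were called in WT/FL cells and 453 (3.04%) had an unadjusted p below 0.05. *Trex1* (-1.16, adjusted p = 0.000593) and *Shisa5* (-0.46, adjusted p = 0.00291) were lower (0.0134% of 14903 tested genes) and *Acp5* was higher (0.49, adjusted p = 0.00602; 0.00671%). Of the 88 genes called over days 2 to 4, 67 had the same sign on day 1. By edgeR the effect over days 2 to 4 was lower than that of day 1 for 4 genes (0.0268%) and higher for 0 (12 and 14 by DESeq2), and 752 (5.05%) had an unadjusted p below 0.05. These 4 were *Mex3b* (-2.66), *N4bp3* (-1.34), *Nlrp3* (-0.95) and *Creb5* (-0.77), whose values on day 1 were -0.29, -0.11, -0.33 and -0.33. Day 1 thus shows *Trex1* and *Shisa5* already lower, while the decreases of *Mex3b*, *N4bp3*, *Nlrp3* and *Creb5* were larger on the later days.

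Called genes were also neighbours on the chromosomes, a pattern that was noticed after the values were seen and has no test here. Of the 61 lower genes 16 (26.2%) had another called gene within 100 kb, and of the 27 higher genes 0. The share of all tested genes with a called gene within 100 kb was not determined. These shares therefore cannot be read as above or below that of other genes. The 11 pairs were all of genes that fell together. Besides *Trex1*, *Shisa5* and *Pfkfb4*, they included *Mgl2* and *Clec10a* (chr11, 18646 bases apart), *Arl5c* and *Cacnb1* (5165 bases), *Ern1* and *Tex2* (14277 bases), and *Sephs2* and *Itgal* (22204 bases). A group of 3 on chromosome 11 held *Rmnd5b* (chr11:51514490-51526830), *N4bp3* (chr11:51529715-51542173) and *D930048N14Rik*. *Rmnd5b*, a subunit gene of a ubiquitin ligase complex, fell by 0.59 and *D930048N14Rik* by 0.99 on the log2 scale. *N4bp3* and *D930048N14Rik* overlap by 402 bases on opposite strands, and since the strand setting of the quantification is not given in the sources used here, their reads cannot be told apart there. Chromosome 11 held 12 of the 61 lower genes (19.7%), 2 of the 27 higher genes (7.41%) and 7.83% of all tested genes. It is shown as the chromosome with the largest share of the lower genes. Several of the neighbours named above lie on it, so its share is not a separate observation.

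Promoter letters were searched because AP-1 subunit genes were among the higher genes and *Creb5*, whose family binds related letters, fell. The windows were the 250 bases before each start (RefSeq, GRCm38.p6), which were found for 27 of 27 higher and 46 of 61 lower genes, and both strands were read. The AP-1 letters TGANTCA were in windows of 7 of 27 higher (25.9%) and 8 of 46 lower genes (17.4%), against 5.58% of 10226 tested genes with a window and 7.82% of all 27025 genes of the table. The cAMP response element TGACGTCA was in 0 higher and 1 lower gene (2.17%) against 3% of tested genes, the hypoxia response core ACGTG in 25.9% and 26.1% against 24.9%, and the palindromic estrogen response element in 0 and 0 against 1 tested gene. Matches of different motifs may overlap, as ACGTG and TGACGTCA do at *Creb5*, and genes with several starts count once if any window holds the letters. A match is a description of the letters and not a binding site.

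The higher genes with the AP-1 letters were *Il1rn*, *Ddit3*, *Slamf7*, *Prdm1*, *Ascc3*, *Sema4d* and *Ms4a7*, and the lower ones *Creb5*, *D930048N14Rik*, *Fgd4*, *Tbxas1*, *Psap*, *Osgin1*, *St6gal1* and *Klhl21*. Windows of the 2 highest of the former and the 2 lowest of the latter are shown with the letters in capitals, followed by the cAMP response element of the other *Creb5* start. They lie at chr2:24336689-24336755, chr10:127290543-127290587, chr6:53573299-53573365, chr11:51650812-51650878 and chr6:53287228-53287295 (GRCm38.p6, plus strand), and the letters end 134, 235, 38, 105 and 37 bases before the start:
Il1rn: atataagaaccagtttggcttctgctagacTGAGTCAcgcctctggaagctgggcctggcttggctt
Ddit3: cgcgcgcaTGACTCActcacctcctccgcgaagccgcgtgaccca
Creb5: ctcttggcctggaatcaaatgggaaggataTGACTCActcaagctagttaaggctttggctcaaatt
D930048N14Rik: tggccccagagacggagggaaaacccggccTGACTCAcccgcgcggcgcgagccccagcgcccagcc
Creb5, other start: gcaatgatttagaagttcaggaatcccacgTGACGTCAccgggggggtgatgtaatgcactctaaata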

How the data were processed

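RNA-seq of BMDMs gave estimated counts per gene, which the authors made by demultiplexing with JE, checking with FastQC 11.9, quantifying with Salmon and summing with tximport on GRCm39. The deposited counts carry no normalization and are stored as whole numbers. The Salmon version, the strand setting and the annotation release are not given in the sources used here. GENCODE vM39 supplied symbols and coordinates for 51048 of 54281 identifiers, and 0.32% of counts fell in the remaining ones.

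Libraries were grouped by their labels. For the 12 libraries, edgeR 4.0.16 was run in R 4.3.3 (filterByExpr with a minimum count of 10, TMM factors, robust glmQLFit, glmQLFTest) with day and treatment as terms, which leaves 8 residual degrees of freedom. A Benjamini-Hochberg adjusted p below 0.01 made a call, and the common biological variation (BCV) was 0.0835. Effects by day came from 6 group means, the genotype difference from 24 libraries and that of day 1 from 16. The SE is the absolute log2 fold change over the square root of F.

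Named genes were *Trex1*, *Atrip*, genes past the thresholds of the study, the 12 largest increases and decreases among called genes with at least 5 CPM, called list members or the 2 with the smallest p, the PCR panel, genes that differed between days or genotypes, and genes of earlier results. *Phactr1*, *Fgd4*, *Stambpl1*, *Lrp12*, *Ern1*, *Plod1*, *Spn*, *Htra1*, *Casp4*, *Prdm1*, *Bin1*, *Igfbp4*, *Itgal*, *Il17ra*, *Sort1*, *Cd36*, *Rmnd5b*, *D930048N14Rik*, *Tgtp1*, *Tgm2* and *Nr4a1* were added after their values were seen. The comparison and the gene lists were chosen with earlier results of these data known. Lists were compiled by hand, except S and G2/M phase (Seurat 5.3.0). The limit that a count of 0 allows covers counting error only.

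On simulated data with 14437 genes the test recovered 42 of 67 genes given a log2 change of 0.5, 51 of 67 given 1 and 52 of 66 given 2, with 2 false calls. The simulated libraries were independent, with the same effect on each day. These numbers therefore do not cover libraries that share animals or cultures. Alternatives were RLE factors, other filters, DESeq2 1.42.0, limma-voom 3.58.1, fits of 32 libraries or 6 means, single days, other thresholds, a block for library number series, and leaving out each library.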

Additional observations from a re-analysis of the deposited data

Results flagged for a closer look

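The results given here are 4-OHT effects that differed between *Trex1* FL/FL and WT/FL cells over days 2 to 4, or between times, by the test of the difference itself. A positive value means a higher effect in FL/FL cells. Both genotypes have their own untreated libraries. The cause of the differences was not tested.

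*Trex1* itself differed (adjusted p = 3.751e-18), with 0 counts in 4 treated FL/FL libraries, and *Shisa5* next to it differed by -3.735 and *Pfkfb4* by -0.5002. *Mgl2* differed by -2.916, but its treated FL/FL libraries held 0 to 5 counts, so this value depends on the prior count.

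Some genes lower in WT/FL cells were not called lower in FL/FL cells over days 2 to 4 and had positive differences. These were *Creb5* (1.053), *Phactr1* (1.205), *Fgd4* (0.6062), *Stambpl1* (0.5253), *Lrp12* (0.5997), *Ern1* (0.3311), *Plod1* (0.2328) and *Spn* (0.7678). For *Creb5* the FL/FL average joins a lower level on day 3 and a higher one on day 4. *Psap* was lower in both and differed by 0.1471. *Fosb* (-1.892) and *Htra1* (-0.9308) were higher in WT/FL cells and below 0 in FL/FL cells. Lower genes with a larger decrease in FL/FL cells were *Clec10a* (-0.8125), *Nlrp3* (-0.2754), *Sort1* (-1.302), *Igfbp4* (-0.6657), *Bin1* (-0.3524), *Osgin1* (-0.3235) and *Itgal* (-0.2699).

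Higher genes with a larger increase in FL/FL cells were *Kdr* (1.915), *Ddit3* (1.5), *Slamf7* (1.258), *Nupr1* (1.005), *Casp4* (0.7918), *Nr1h3* (0.7013), *Il1rn* (0.5846), *C3* (0.5299), *Jun* (0.2398) and *Tgtp1* (2.333). Among IFN-stimulated genes the differences were 2.351 for *Ifi44*, 2.243 for *Oasl1*, 1.779 for *Usp18*, 1.824 for *Isg15*, 0.9237 for *Oas1a*, 1.974 for *Ifit3*, 1.767 for *Irf7*, 2.358 for *Cxcl10*, 1.089 for *Ifih1* and 1.155 for *Sp140*. *Slamf9* differed by 2.452, *Cdkn1a* by 0.6382, and the proliferation genes *Mki67* and *Pbk* by -1.185 and -1.349, and none of these 4 was called in WT/FL cells.

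Between day 1 and days 2 to 4 in WT/FL cells the effect differed by -2.656 for *Mex3b*, -1.337 for *N4bp3*, -0.9475 for *Nlrp3* and -0.7655 for *Creb5*. The effect on *Gm47924* differed between days 2, 3 and 4 (adjusted p = 0.001869).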

How the results depend on the processing

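The 88 called genes (27 higher, 61 lower) became 580 (356 and 224) with no filter on low counts, 224 (103 and 121) with DESeq2, 173 (73 and 100) with the library number series as a block and 197 (87 and 110) at an adjusted p below 0.05, and 10, 28 and 24 on day 2, 3 or 4 alone, where fewer libraries were compared. The cause of the other changes was not tested. With no filter the edgeR adjusted p of *Trex1* was 1.99e-123 against 5.48e-07, at the same log2 fold change of -0.91. The counts of calls with no filter therefore cannot be compared directly with the others. Between these, 85 were called with RLE factors, 84 at 1 CPM or more in 6 libraries, 129 in the fit of 32 libraries (71 of the 88 among them), 97 with 6 group means and 100 with limma-voom (87 of the 88). Without 1 library the count ranged from 48 to 121, and it fell most without either untreated library of day 3 (50 and 48), the first 4-OHT library of day 3 (48) and either 4-OHT library of day 4 (54 each). The 4 genes past a log2 fold change of 1.5 became 28 with no filter, 2 at 1 CPM or more, 2 on day 2 alone, 2 on day 4 alone and 3 to 7 without 1 library (7 without the first untreated library of day 4). Genes that differed between days were 13 with DESeq2, 1 in the fit of 32 libraries, which did not call *Gm47924*, and 1 to 3 without 1 library, and those that differed from day 1 were 26 with DESeq2 and 4 to 5 without 1 library. Genes that differed between genotypes ranged from 2286 to 2437 without 1 library. *Trex1* kept its call in every fit without 1 library, at -0.95 to -0.88.

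On 1 day alone the sign changed for *Zbed6* (0.0245 on day 2, 0.0404 on day 4), *Slamf9* (-0.0564), *Pbk* (0.0034) and *Cdkn1a* (-0.0073) on day 2, *Gm47924* (0.95) and *Mki67* (0.0467) on day 3, and *Pam16l* (-0.64) and *Katnal2* (-0.12) on day 4, none of which was called. Of 48 called genes that are named, 28 kept their call in every fit without 1 library. The others lost it in 3 (*Ern1*), 4 (*Fgd4*, *Jun*, *Vegfa*), 6 (*Osgin1*), 7 (*Il1b*), 8 (*Casp4*, *D930048N14Rik*, *Enc1*, *Phactr1*), 9 (*Acp5*, *Cd36*, *Pfkfb4*, *Slamf7*), 10 (*Prdm1*, *Sort1*, *Spn*) or 11 (*Clec10a*, *Htra1*, *Tgtp1*) of 12 such fits. The fit of 32 libraries ended the calls of *Acp5*, *Htra1*, *Il1b*, *Osgin1*, *Pfkfb4*, *Prdm1*, *Sort1*, *Spn* and *Tgtp1*, the 6 means those of *Acp5*, *Casp4*, *Enc1*, *Htra1*, *Prdm1*, *Spn* and *Tgtp1*, RLE factors those of *Casp4* and *Slamf7*, the filter at 1 CPM those of *Casp4*, *Htra1* and *Slamf7*, and the block those of *Cd36* and *Slamf7*, and no sign changed. Calls were also gained. DESeq2, the fit of 32 libraries and no filter called *Nr4a1*, *Gpx3* and *Tgm2* lower and *Ifih1* higher. The block also called *Tgm2*, and the 6 means *Ifih1*. The fit of 32 libraries, the 6 means and no filter called *Pbk* and *Ska1* lower and *Slamf9* higher. No filter added the PCR panel, *Mki67*, *Sp140*, *Zbed6* and *Gm47924*, the last also called with 6 means. No paired analysis was possible because the labels give no replicate numbers, and the block above rests only on library numbers in the titles. These form 2 series, and deviations from the group means within a series correlated at 0.0512 to 0.131, above 0.1 in 6 of 15 pairs of groups, although principal component 3 (6.3% of variance) separated the 2 series. The block, the threshold of 0.05 and the other tools for lists were chosen after seeing the data. With 2 libraries per group, single days have little power, and *Samd5*, *Mgl2* and the day 2 values of *Fosb* rest on few counts.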
